A study of Saccharomyces cerevisiae with 8 samples.

Results

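The cytosolic ribosome of Saccharomyces cerevisiae is built from ribosomal RNA and one copy each of a fixed set of ribosomal proteins, named RPL for the large subunit and RPS for the small subunit. Here the genes encoding these proteins were followed in yeast grown on xylose without oxygen, after loss or gain of the transcription factor gene AZF1. Genes were taken by name, as those starting with RPL or RPS directly followed by a digit, which gave 117 of the 6328 genes in the table, 67 for the large subunit and 50 for the small subunit. Most yeast ribosomal proteins are encoded by a pair of paralogs left from an ancient genome duplication and marked A and B. Of the 117 genes, 84 formed 42 complete A/B pairs, 15 carried a letter but had a partner that was not analysed here, and 18 were single by name.

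All cultures were of the strain labelled Y128, a xylose-fermenting strain that carries xylose isomerase, xylulokinase and transaldolase genes and was evolved for growth on xylose. Per the study, this strain has lost the function of ISU1, HOG1, GRE3 and IRA2, the last an inhibitor of RAS and protein kinase A signalling. WT therefore names this mutant background with its AZF1 gene intact. The study's methods name Y133, a derivative of Y128 without its drug marker, for the same experiment. The near absence of the marker transcript in WT, given below, goes with Y133, and the label is kept here as a name. The 4 groups were WT, azf1Δ (AZF1 locus replaced with a KanMX cassette), MoBY control (the empty MoBY 2.0 plasmid) and AZF1 MoBY (the same plasmid with AZF1). Both plasmid groups were grown with 200 mg/L G418, the drug that selects for the plasmid, and WT and azf1Δ without it, so plasmid and drug cannot be told apart when MoBY control is set against WT. Every culture grew anaerobically on rich medium with 2% xylose and was collected in exponential phase, and each group had 2 replicates, A and B, taken on different days. With so few samples the p-values measure the spread between these cultures only.

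Total RNA was depleted of ribosomal RNA before sequencing, and the deposited values are log2 of RPKM (mapped reads scaled to gene length and library size), so a member is always read as its share of the other mapped RNA. In such bulk samples, fewer cells with a transcript and less transcript per cell cannot be told apart. The spacing of the low values gave 6180000 to 7130000 mapped reads per library. At that depth the median member rested on 413.3 to 1138 reads, and the least covered on 32.8 to 63.9 reads (RPS6B or RPL15B). AZF1 itself was at 13.2 and 11.6 RPKM in WT, 0.0501 and 0.120 RPKM in azf1Δ, 13.3 and 14.3 RPKM in MoBY control and 74.0 and 73.5 RPKM in AZF1 MoBY, as labelled. The G418 resistance marker kanR was at 0.200 and 0.351 RPKM in WT and 11.8 and 8.17 RPKM in azf1Δ. In the plasmid groups kanR was at 68.6 and 90.5 RPKM in MoBY control and 36.5 and 40.2 RPKM in AZF1 MoBY. The MoBY control libraries were the least alike in these genes: 85 of the 117 were higher in replicate B, with a median difference of 0.18 on the log2 scale against 0.05 over all genes, while in each of the other groups the median difference of the members was at most 0.05 in size.

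Ribosomal protein transcripts are among the most abundant in growing yeast, and their transcription is tied to growth through Rap1, Fhl1 and Ifh1 at the promoter and through the TOR and protein kinase A pathways. They are regulated together as a family, and ribosomal proteins that find no place in a ribosome are degraded. Excess protein from some genes feeds back on the transcript of the same gene or its paralog, which is best known for RPL30, RPS14B, RPL22B and RPS28B.

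Together the members made up 14.2% and 14.8% of the summed RPKM of all genes in the WT libraries and 14.4% and 14.0% in azf1Δ. The share was 9.36% and 10.1% in MoBY control, and 6.19% and 5.94% in AZF1 MoBY. The azf1Δ libraries overlapped WT, both MoBY control libraries lay below WT and azf1Δ, and both AZF1 MoBY libraries lay below MoBY control. The median member followed the same order, at 437 and 431 RPKM in WT, 431 and 437 in azf1Δ, 269 and 304 in MoBY control and 174 and 169 in AZF1 MoBY. Mean RPKM was 2.41-fold higher in WT than in AZF1 MoBY for the median member, and over 2-fold higher for 92 of the 117. These groups differ in plasmid, G418 and AZF1 together, and no test was run between them. No count over all genes is given for the 2-fold mark.

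**Figure D1:**
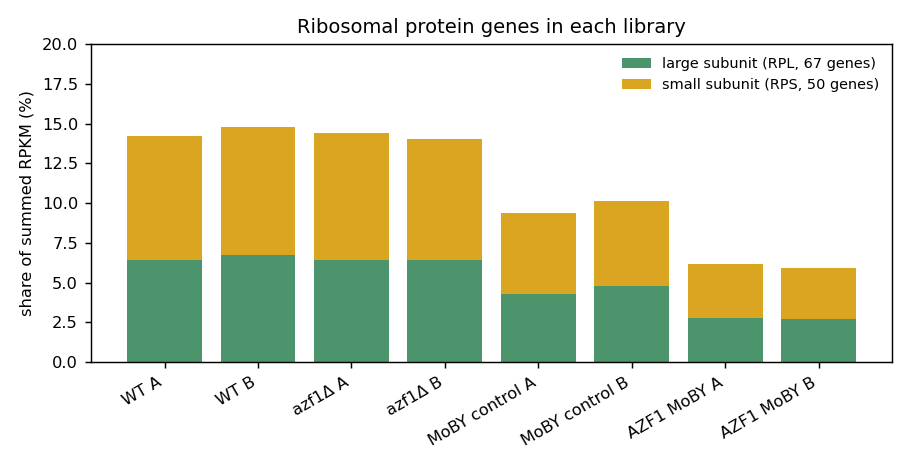
Share of the summed RPKM of all genes taken by ribosomal protein genes (y axis, percent) in each of the 8 libraries (x axis), with the 67 large subunit genes at the bottom of each bar and the 50 small subunit genes on top. The total is 14.2% and 14.8% in WT and 6.19% and 5.94% in AZF1 MoBY, with both MoBY control libraries in between.

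The 2 subunits kept close proportions across the groups. Summed RPKM of the large subunit genes over that of the small subunit genes was 0.830 and 0.832 in WT, 0.803 and 0.847 in azf1Δ, 0.844 and 0.890 in MoBY control and 0.809 and 0.826 in AZF1 MoBY. MoBY control B was the highest and azf1Δ A the lowest, and the AZF1 MoBY libraries lay below both MoBY control libraries. The median gene was also higher in the small subunit in every library, at 481 against 340.1 RPKM in WT A and 215 against 140.1 RPKM in AZF1 MoBY B. RPS30A, the most abundant member by its mean over the 8 libraries, reached 3259 and 3259 RPKM in WT, 3769 and 3641 RPKM in azf1Δ, 2106 and 2740.1 RPKM in MoBY control and 1734 and 1722 RPKM in AZF1 MoBY. RPS29B, for a zinc-binding protein of the small subunit head, reached 3666 and 3104 RPKM in WT, 3327 and 2539 RPKM in azf1Δ, 1951 and 1121 RPKM in MoBY control and 1389 and 1243 RPKM in AZF1 MoBY. Without the 5 most abundant members (RPS30A, RPS29B, RPL5, RPS0B and RPS15) the ratio was 1.09 and 1.08 in WT, 1.06 and 1.09 in azf1Δ, 1.08 and 1.13 in MoBY control and 1.07 and 1.09 in AZF1 MoBY. Over the members with no A/B partner in the table it was 1.18 to 1.29.

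Extra AZF1 was compared with the empty plasmid, which asks what AZF1 on the plasmid changes at the same drug dose. The G418 resistance marker kanR was lower in AZF1 MoBY (limma log2 fold change -1.02 ± 0.15, adjusted p = 0.0110). Whether plasmid number or drug action differed between these groups was not tested. In AZF1 MoBY, 82 of the 117 members fell and none rose (limma on log2(RPKM + 1), Benjamini-Hochberg adjusted p under 0.05 over 6029 genes). Over all genes tested 16.4% were called in either direction, 6.17% lower and 10.2% higher. The median member changed by -0.70 (log2), a 1.62-fold decrease, where the median of all genes was 0.00. Both AZF1 MoBY libraries lay below both MoBY control libraries for 110 members, against 28.1% of all genes, and above them for none, against 30.9% of all genes. Without a variance trend 51 members were called lower. The fall took in 46 of 67 large subunit genes (median -0.70) and 36 of 50 small subunit genes (median -0.71). Leaving out either AZF1 MoBY library left 0 members past the threshold, and without MoBY control B 37 passed, while the median stayed between -0.79 and -0.60.

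The azf1Δ strain asks the reverse question, what is lost with AZF1, and there the members did not move as a family. None of the 117 passed the test against WT (limma), where 1.73% of all genes did (0.791% lower and 0.942% higher), and 31 had an unadjusted p under 0.05, where 17.6% of all genes did. The median was 0.00 (log2), with 58 members lower and 59 higher, and single members ran from -0.48 to 0.48. The medians of the large and of the small subunit genes both lay within 0.01 of 0, beside 0.04 over all genes. The 4 libraries did not overlap for 31 members below WT (17.6% of all genes) and 35 above it (30.7% of all genes). The median standard error of a member was 0.09.

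Plasmid and G418 together, set against neither, also went with lower ribosomal protein transcripts. In MoBY control 68 of the 117 members were lower than in WT and none higher, where 23.7% of all genes were called, 10.6% lower and 13.2% higher. The median member changed by -0.57 (log2), a 1.49-fold decrease, beside -0.02 over all genes. Large subunit genes had 38 of 67 lower (median -0.57) and small subunit genes 30 of 50 (median -0.58), and both MoBY control libraries lay below both WT libraries for 106 members, against 32.6% of all genes, and above them for 1, against 30.4%. Leaving out any one library lowered the count, with 3 members passing without WT A or without WT B, 11 without MoBY control A and 25 without MoBY control B, while the median stayed between -0.67 and -0.47. This comparison shares its MoBY control libraries with the one of extra AZF1, and a high or low MoBY control value moves both, in opposite directions.

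**Figure D2:**
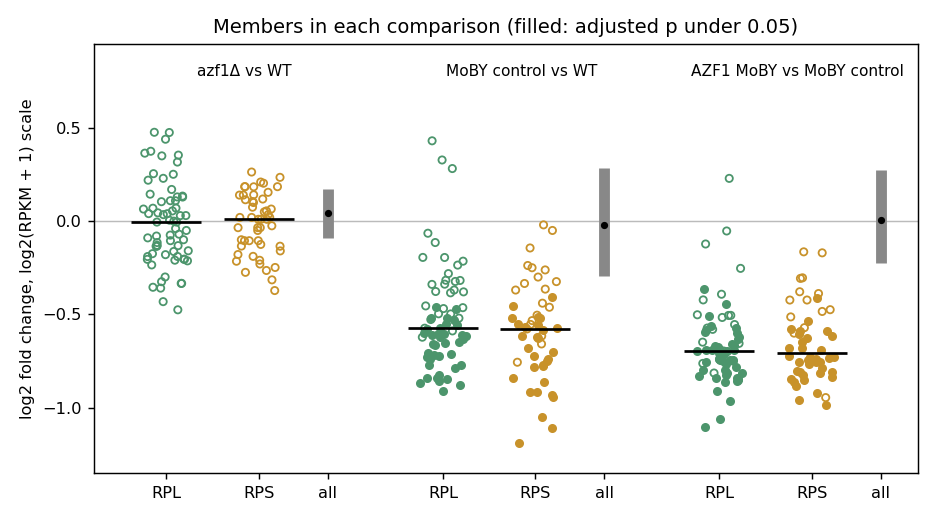
Log2 fold change of every ribosomal protein gene (y axis) in 3 comparisons, for the 67 large subunit (RPL) and 50 small subunit (RPS) genes, with black bars at the medians and filled points for an adjusted p under 0.05. Grey bars mark the middle 50% of all genes tested with a black dot at their median. No point is filled in azf1Δ against WT, and 68 and 82 are filled in the other comparisons, all below 0.

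The difference between the effect of extra AZF1 and the effect of its loss was tested directly in one fit of all 8 libraries. That test called 65 members lower and none higher, with 14.7% of all genes called, 6.80% lower and 7.90% higher, and a median of -0.69 (large subunit 36 of 67, small subunit 29 of 50). The count ran from 28 without AZF1 MoBY B to 91, and was 42 without azf1Δ A. It called 7 members that had missed the threshold in AZF1 MoBY against MoBY control, among them RPL1B, RPL4A, RPL39, RPS7B, RPS22B and RPS30A, and it did not call 24 members that had passed there. Without a variance trend it called 43. The value for RPL11A was the most negative of the family (-1.34 ± 0.21, adjusted p = 0.00561), with 113 and 114 RPKM in WT, 137 and 182 RPKM in azf1Δ, 96.3 and 85.6 RPKM in MoBY control and 54.9 and 44.6 RPKM in AZF1 MoBY. RPL11A was highest in azf1Δ and lowest in AZF1 MoBY. Its coding sequence shares long stretches with RPL11B, 46.7% of its 100-base windows being unique in the S288C genome, and whether reads were exchanged between the copies in counting was not tested.

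Among the large subunit genes, those of the 5S ribonucleoprotein were followed first. Rpl5 and Rpl11 bind 5S ribosomal RNA and are imported together before they join the large subunit. RPL5, the most abundant RPL gene by its mean over the 8 libraries and below RPL2A in both plasmid groups, was at 1938 and 1846 RPKM in WT, 2091 and 2165 RPKM in azf1Δ, 1209 and 1089.9 RPKM in MoBY control and 666 and 626 RPKM in AZF1 MoBY. Both AZF1 MoBY libraries lay below both MoBY control libraries, these lay below WT, and both azf1Δ libraries lay above WT. It fell with extra AZF1 (limma log2 fold change -0.83 ± 0.09, adjusted p = 0.00507) and was lower in MoBY control than in WT (-0.72 ± 0.12, adjusted p = 0.00883), and its value in azf1Δ against WT was 0.17. RPL11B was at 104 and 109 RPKM in WT, 103 and 115 RPKM in azf1Δ, 73.0 and 74.0 RPKM in MoBY control and 41.9 and 39.1 RPKM in AZF1 MoBY. RPL11A and RPL11B fell with extra AZF1 by 0.86 and 0.84 on the log2 scale.

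Further large subunit genes were picked for the roles of their proteins. RPL3, whose protein sits near the peptidyl transferase centre, was at 1168 and 1098 RPKM in WT, 1144 and 1209 RPKM in azf1Δ, 760.1 and 898 RPKM in MoBY control and 516 and 519 RPKM in AZF1 MoBY. With extra AZF1 it changed by -0.67 ± 0.10, adjusted p = 0.0122 and fell, and in MoBY control against WT it did not pass (-0.45 ± 0.13, adjusted p = 0.0508). RPL10, whose protein is among the last to join the large subunit and is carried by the chaperone Sqt1, was at 855 and 879 RPKM in WT, 739 and 765 RPKM in azf1Δ, 545 and 592 RPKM in MoBY control and 452 and 431 RPKM in AZF1 MoBY. It was lower in every AZF1 MoBY library than in every other library, and its change with extra AZF1 was the smallest of the called members of the large subunit (-0.36 ± 0.09, adjusted p = 0.0426). RPL28, long known as a cycloheximide resistance gene, was at 1323 and 1333 RPKM in WT, 1209 and 1121 RPKM in azf1Δ, 969 and 962 RPKM in MoBY control and 576 and 580.0 RPKM in AZF1 MoBY, and it fell with extra AZF1 (-0.74 ± 0.08, adjusted p = 0.00425) and in MoBY control (-0.46 ± 0.11, adjusted p = 0.0291).

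Nascent chains leave the ribosome through a tunnel in the large subunit. Among the genes for proteins of that tunnel, RPL35A was among the lowest members in azf1Δ against WT (-0.43). RPL25, whose protein binds the signal recognition particle and chaperones at the exit, was at 771 and 781 RPKM in WT, 949 and 1053 RPKM in azf1Δ, 580.0 and 505 RPKM in MoBY control and 410.1 and 352 RPKM in AZF1 MoBY. Both azf1Δ libraries lay above all other libraries, without passing the test against WT (0.36 ± 0.08, adjusted p = 0.102). RPL39, for a tiny protein lining the tunnel, was at 484 and 549 RPKM in WT, 699 and 699 RPKM in azf1Δ, 345 and 588 RPKM in MoBY control and 284 and 247 RPKM in AZF1 MoBY. It too had both azf1Δ libraries above all others (0.44 ± 0.09, adjusted p = 0.0678), and its MoBY control libraries differed widely. With extra AZF1 it did not pass (-0.76 ± 0.25, adjusted p = 0.0961), and in the direct test of gain against loss it did (-1.20 ± 0.30, adjusted p = 0.0291). RPL4A, whose protein lines the tunnel, was at 94.4 and 80.4 RPKM in WT, 117 and 126 RPKM in azf1Δ, 102 and 136 RPKM in MoBY control and 79.3 and 80.4 RPKM in AZF1 MoBY, with 1 of the 3 positive values among members in MoBY control against WT (0.43 ± 0.17, adjusted p = 0.117), the others being RPL15B and RPL4B. Only 47.2% of the RPL4A windows are unique, and its partner RPL4B had 0.28 in the same comparison.

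Some genes stand out because their proteins or transcripts have a role beyond the ribosome. RPL30, whose protein binds its own transcript and blocks its splicing, was at 333 and 355 RPKM in WT, 340.1 and 290.0 RPKM in azf1Δ, 179 and 201 RPKM in MoBY control and 111 and 123 RPKM in AZF1 MoBY. It was among the members lowest in MoBY control against WT (-0.86 ± 0.11, adjusted p = 0.0032), and fell again with extra AZF1 (-0.69 ± 0.10, adjusted p = 0.0107). RPL40A and RPS31 encode ubiquitin fused to a ribosomal protein and so supply ubiquitin as well as ribosomes. RPL40A was at 399 and 402 RPKM in WT, 410.1 and 478 RPKM in azf1Δ, 228 and 258 RPKM in MoBY control and 142 and 146 RPKM in AZF1 MoBY, and RPS31 was at 1160.1 and 1252 RPKM in WT, 1296 and 1287 RPKM in azf1Δ, 843 and 917 RPKM in MoBY control and 560.3 and 537 RPKM in AZF1 MoBY. Both fell with extra AZF1 (-0.75 and -0.68) and in MoBY control against WT (-0.72 and -0.45), with all 4 values past the threshold. RPL41A, which encodes a very short basic peptide, was at 161 and 145 RPKM in WT, 134 and 164 RPKM in azf1Δ, 74.5 and 151 RPKM in MoBY control and 95.7 and 82.7 RPKM in AZF1 MoBY. Its MoBY control libraries differed by 1.01 on the log2 scale, the widest gap of any member in that group, and none of its comparisons passed.

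The members that fell furthest with extra AZF1 came from both subunits. RPL22A, for an RNA-binding protein of the large subunit, had 471 and 407 RPKM in WT, 369.6 and 443 RPKM in azf1Δ, 282 and 355 RPKM in MoBY control and 149 and 144 RPKM in AZF1 MoBY, and its change with extra AZF1 was the most negative of the family (-1.10 ± 0.13, adjusted p = 0.00507), which is 0.465 of the MoBY control level. Among large subunit genes RPL43B (-1.06 ± 0.21, adjusted p = 0.0254) and RPL9A (-0.97 ± 0.10, adjusted p = 0.0043) came next. RPL9A was at 113 and 117 RPKM in WT, 118 and 124 RPKM in azf1Δ, 73.0 and 75.6 RPKM in MoBY control and 39.7 and 35.5 RPKM in AZF1 MoBY, and its 4 groups did not overlap. The 3 lowest of the small subunit were RPS9B (-0.99 ± 0.15, adjusted p = 0.0122), RPS26B (-0.96 ± 0.24, adjusted p = 0.0463) and RPS21B, which did not pass (-0.95 ± 0.24, adjusted p = 0.0538). At the other end were RPL15B (0.23), RPL7B (-0.05), RPS14B (-0.16) and RPS29B (-0.17), none of which passed.

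Some abundant genes of the small subunit were picked for the roles of their proteins. RPS3, whose protein lines the entry of the messenger RNA channel, was at 657 and 776 RPKM in WT, 584 and 635 RPKM in azf1Δ, 380.0 and 452 RPKM in MoBY control and 256 and 236 RPKM in AZF1 MoBY, and it fell with extra AZF1 (-0.75 ± 0.11, adjusted p = 0.0108). RPS15, for a protein needed for export of the small subunit from the nucleus, was at 1746 and 1898 RPKM in WT, 1846 and 1552 RPKM in azf1Δ, 885 and 1053 RPKM in MoBY control and 580.0 and 584 RPKM in AZF1 MoBY, and it had one of the larger falls in MoBY control (-0.91 ± 0.14, adjusted p = 0.00557). RPS20, for a protein of the small subunit head, was at 437 and 635 RPKM in WT, 630.3 and 545 RPKM in azf1Δ, 294 and 377 RPKM in MoBY control and 198 and 195 RPKM in AZF1 MoBY, and its WT libraries were far apart. It fell with extra AZF1 (-0.76 ± 0.13, adjusted p = 0.0168), and was not called in MoBY control (-0.66 ± 0.21, adjusted p = 0.0684).

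The members lowest in MoBY control against WT were led by genes of the small subunit. RPS29B changed by -1.19 ± 0.27, adjusted p = 0.0226, and RPS24A by -1.11 ± 0.15, adjusted p = 0.0034, with RPS24A at 592 and 481 RPKM in WT, 452 and 437 RPKM in azf1Δ, 269 and 228 RPKM in MoBY control and 198 and 171 RPKM in AZF1 MoBY. RPS29A changed by -1.05 ± 0.17, adjusted p = 0.00657. RPS24A, RPS29A and RPS29B did not pass with extra AZF1, where they had -0.42, -0.31 and -0.17. In the large subunit, RPL7A (-0.91 ± 0.10, adjusted p = 0.00171), RPL34A (-0.88 ± 0.14, adjusted p = 0.00714) and RPL38 (-0.87 ± 0.19, adjusted p = 0.0204) were lowest. At the upper end stood RPL4A (0.43), RPL15B (0.33), RPS14B (-0.02) and RPS14A (-0.05).

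In azf1Δ against WT the lowest members were RPL7A (-0.48 ± 0.10, adjusted p = 0.0755), RPL35A (-0.43 ± 0.08, adjusted p = 0.0643) and RPL27A (-0.36 ± 0.10, adjusted p = 0.142) in the large subunit, and RPS19A (-0.37 ± 0.08, adjusted p = 0.0777), RPS12 (-0.31 ± 0.08, adjusted p = 0.115) and RPS16A (-0.27 ± 0.11, adjusted p = 0.271) in the small. The highest were RPL11A (0.48), RPL4A (0.48), RPS7B (0.26) and RPS0B (0.23). None of these passed. RPL7A, RPL11A, RPL35A and RPL4A are among the members with the fewest unique windows (22.2% to 54.8%), and what part the placing of reads had in these values was not tested.

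Introns are unusually common in this family, and the RefSeq models of S288C place one within the coding sequence of 77 of the 117 members. The 77 had a median of -0.08 in azf1Δ against WT, with 45 lower, and the 40 others had a median of 0.04, with 13 lower. In AZF1 MoBY against MoBY control the medians were -0.70 and -0.68, and in MoBY control against WT -0.56 and -0.61. The 17 members with a coding sequence under 300 bases had 7 called with extra AZF1, against 75 of the 100 longer ones, at medians of -0.65 and -0.70. The Azf1 protein is known to bind A-rich DNA, and the letters AAGAAAAA, searched on both strands from 250 bases before to 50 bases after each RefSeq gene start, were found at 16 of the 117 members (13.7%) and at 20.5% of 6008 genes. With extra AZF1, 10 of these 16 and 72 of the 101 others were called lower, at medians of -0.63 and -0.70, beside 6.17% of all genes. These letters are a fixed string and not the motif matrix that the study derived. Whether they mark Azf1 sites was not tested, so the split is not one by Azf1 sites. The 18 single members had 16 called lower (median -0.73) and the 84 members of pairs 57 (median -0.69).

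The paralog pairs are close copies, with proteins 85.7% to 100% identical and 9 of the 42 pairs encoding the same protein sequence. The A copy was the higher in every library for 23 pairs and the B copy for 14, and for 5 pairs the order differed between libraries. The most uneven pair was RPL15, which encodes an essential protein of the large subunit. RPL15A was at 1098 and 1144 RPKM in WT, 1193 and 1261 RPKM in azf1Δ, 676 and 798 RPKM in MoBY control and 474 and 449 RPKM in AZF1 MoBY. RPL15B was at 12.3 and 9.58 RPKM in WT, 11.4 and 11.0 RPKM in azf1Δ, 12.3 and 15.7 RPKM in MoBY control and 15.2 and 17.8 RPKM in AZF1 MoBY, so the mean log2 ratio of A to B was 6.0. The next most uneven were RPS29 (-3.81, in favour of B), RPS22 (3.09) and RPL14 (2.75). Among the most even were RPS21 (-0.02) and RPL34 (0.06).

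**Figure D3:**
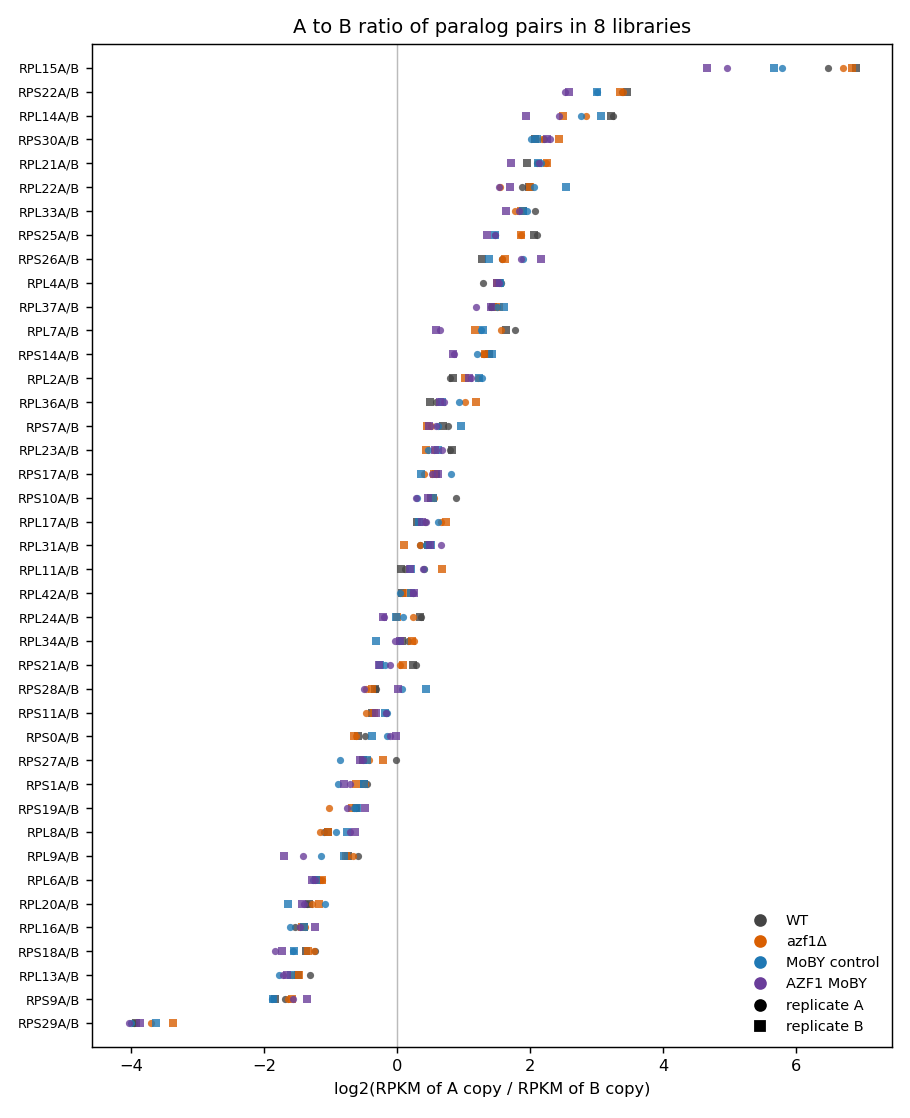
Log2 ratio of the RPKM of the A copy to that of the B copy (x axis) for all but 1 of the 42 pairs (y axis, ordered by mean ratio), with one point per library, coloured by group, circles for replicate A and squares for replicate B. Most pairs keep their side of 0 in all 8 libraries, and RPL15A/B stands apart at a mean of 6.0.

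In AZF1 MoBY the A copies were called lower in 34 of 42 pairs (median -0.73) and the B copies in 23 (median -0.60), beside 6.17% of all genes. The A copy was the more abundant in 25 of the 42 pairs, so copy letter and abundance overlap. Sorted by abundance over the 8 libraries, the higher copy was called in 33 pairs (median -0.72) and the lower copy in 24 (median -0.61). In MoBY control against WT, A copies were called lower in 27 pairs (median -0.60) and B copies in 19 (median -0.52), beside 10.6% of all genes. In azf1Δ against WT the medians were 0.01 and 0.01.

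The ratio within a pair cancels what both copies share, and it was tested over all duplicate gene pairs of the genome whose proteins are reciprocal best matches. With extra AZF1 the ratio changed for 4 of the 42 ribosomal protein pairs, where 20.7% of 323 pairs changed. In all 4 the A copy fell relative to the B copy, and the A copy was the more abundant in every library. Over all 323 pairs, 38 called changes went against the copy first in the alphabet and 29 toward it. The count of 4 lies below the share over all pairs, so neither it nor its direction is read as a result about the family. RPL15 had the largest change (limma, -0.92 ± 0.15, adjusted p = 0.0139), where RPL15A fell (-0.67 ± 0.11, adjusted p = 0.0135) and RPL15B did not pass (0.23 ± 0.17, adjusted p = 0.42). RPL7 changed by -0.67 ± 0.13, adjusted p = 0.0223, RPS14 by -0.47 ± 0.11, adjusted p = 0.0356 and RPS22 by -0.46 ± 0.11, adjusted p = 0.0415. RPL14 had a larger change than RPL7, RPS14 or RPS22 and just missed the threshold (-0.72 ± 0.20, adjusted p = 0.0527). In azf1Δ against WT its ratio moved the same way, also without passing (-0.56 ± 0.13, adjusted p = 0.0581). RPS9 moved toward the A copy with extra AZF1 and also just missed (0.415 ± 0.12, adjusted p = 0.0546). Without single libraries 0 to 2 of the 4 passed, 0 without AZF1 MoBY A or without AZF1 MoBY B, and with the replicate letter as a block 1 pair changed. The count was 7 with a pseudocount of 1 and 2 without a variance trend.

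RPS14, whose protein Rps14 can repress RPS14B, showed the shift at high coverage. RPS14A was at 982 and 976 RPKM in WT, 1067 and 1038 RPKM in azf1Δ, 867 and 1031 RPKM in MoBY control and 622 and 600.5 RPKM in AZF1 MoBY, and RPS14B was at 396 and 375 RPKM in WT, 434 and 416 RPKM in azf1Δ, 377 and 383 RPKM in MoBY control and 343 and 335 RPKM in AZF1 MoBY. RPS14A fell with extra AZF1 (-0.63 ± 0.11, adjusted p = 0.0166), and RPS14B did not pass (-0.16 ± 0.08, adjusted p = 0.214). The ranking of RPS14B among the 117 members by group mean was 64 in WT, 44 in MoBY control and 23 in AZF1 MoBY. Part of that move was thus already present with the empty plasmid and G418. All windows of both RPS14 copies and both RPS22 copies are unique, as are 96.7% of those of RPL15, and for RPL7 54.8% are. RPS22A was at 867 and 917 RPKM in WT, 923 and 955 RPKM in azf1Δ, 530.1 and 584 RPKM in MoBY control and 315 and 288 RPKM in AZF1 MoBY, and RPS22B at 83.3 and 83.3 RPKM in WT, 87.4 and 93.7 RPKM in azf1Δ, 66.3 and 72.5 RPKM in MoBY control and 54.9 and 48.2 RPKM in AZF1 MoBY. RPS22B has an intron and RPS22A has none. RPL7A was at 121 and 126 RPKM in WT, 96.3 and 81.6 RPKM in azf1Δ, 65.3 and 65.3 RPKM in MoBY control and 45.3 and 34.8 RPKM in AZF1 MoBY, and RPL7B at 35.3 and 40.5 RPKM in WT, 32.7 and 36.3 RPKM in azf1Δ, 27.3 and 26.7 RPKM in MoBY control and 29.0 and 23.3 RPKM in AZF1 MoBY.

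In MoBY control against WT, 6 of the 42 pairs changed, where 31.7% of 325 pairs did. RPL15 (-0.96 ± 0.17, adjusted p = 0.00386), RPS25 (-0.61 ± 0.10, adjusted p = 0.003), RPS21 (-0.47 ± 0.12, adjusted p = 0.0202) and RPS22 (-0.41 ± 0.12, adjusted p = 0.0287) shifted toward the B copy. RPS28 (0.58 ± 0.14, adjusted p = 0.0158) and RPL2 (0.44 ± 0.10, adjusted p = 0.0115) shifted toward the A copy. Without WT A or without WT B 1 pair passed, and without single MoBY control libraries at most 4 did, and without a variance trend 2 changed. RPS25A was at 1898 and 1795 RPKM in WT, 1783 and 1428 RPKM in azf1Δ, 917 and 1017 RPKM in MoBY control and 653 and 630.3 RPKM in AZF1 MoBY, and RPS25B at 439.6 and 431 RPKM in WT, 491 and 391 RPKM in azf1Δ, 329 and 367 RPKM in MoBY control and 234 and 246 RPKM in AZF1 MoBY. RPS28B, whose protein feeds back on its own transcript through decay, was at 564 and 609 RPKM in WT, 609 and 617 RPKM in azf1Δ, 338 and 284 RPKM in MoBY control and 288 and 218 RPKM in AZF1 MoBY, and RPS28A at 452 and 484 RPKM in WT, 439.6 and 474 RPKM in azf1Δ, 357 and 385 RPKM in MoBY control and 204 and 219.8 RPKM in AZF1 MoBY. In azf1Δ against WT, 1 pair of 42 changed, where 5.61% of 321 pairs did, and 4 changed with a pseudocount of 1 and 0 without a variance trend or with the replicate block. That pair was RPL36, toward the A copy (0.56 ± 0.09, adjusted p = 0.0321), and it no longer passed without any single library of the comparison. RPL36A was at 375 and 331 RPKM in WT, 434 and 468 RPKM in azf1Δ, 298 and 380.0 RPKM in MoBY control and 224 and 209 RPKM in AZF1 MoBY, and RPL36B at 249 and 234 RPKM in WT, 214 and 205 RPKM in azf1Δ, 156 and 237 RPKM in MoBY control and 138 and 133 RPKM in AZF1 MoBY.

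RPL22 joins a large fall to a shift that did not pass. RPL22B, whose splicing is inhibited by Rpl22 protein, was at 115 ± 18.0 RPKM (mean ± SD, n = 2) in the WT cultures and 118 ± 11.0 without AZF1, and at 64.3 ± 4.72 with the empty plasmid and 47.8 ± 4.91 with AZF1 on it, with both MoBY control libraries below WT and azf1Δ and both AZF1 MoBY libraries lowest. RPL22A fell with extra AZF1 and RPL22B did not pass (-0.42 ± 0.12, adjusted p = 0.0656), whereas in MoBY control against WT RPL22B was lower (-0.83 ± 0.14, adjusted p = 0.00843) and RPL22A did not pass (-0.47 ± 0.15, adjusted p = 0.0679). The change of their ratio was -0.68 ± 0.19, adjusted p = 0.0503 with extra AZF1 and 0.36 ± 0.17, adjusted p = 0.156 in MoBY control against WT. Both comparisons share the MoBY control libraries, where the log2 ratio of A to B was highest (2.06 and 2.54). It was 1.88 and 1.99 in WT and 1.54 and 1.70 in AZF1 MoBY, so the opposite signs are not independent results.

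**Figure D4:**
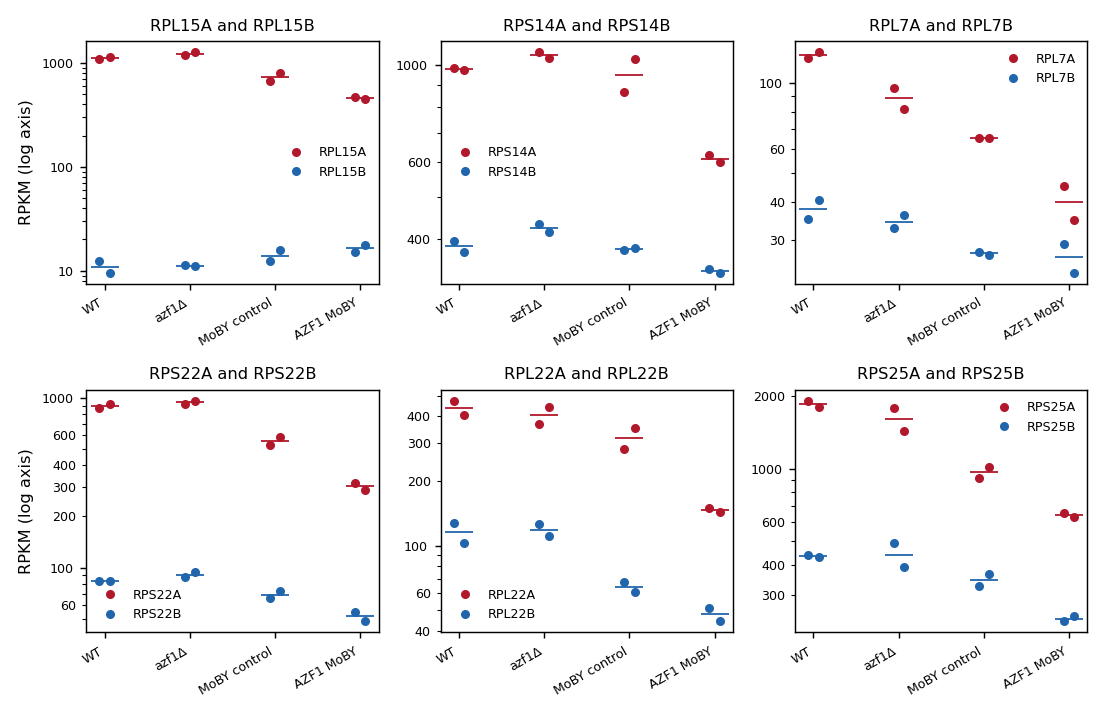
RPKM (y axis, log scale) of the A copy (red) and B copy (blue) of 6 pairs in the 4 groups (x axis), with points for the 2 libraries and bars for the group mean. RPL15A falls from 1098 and 1144 RPKM in WT to 474 and 449 in AZF1 MoBY, while RPL15B stays between 9.58 and 17.8 RPKM in all libraries.

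Ribosome components that the naming rule left out were read from a fixed list. The P-stalk genes RPP0, RPP1A, RPP1B, RPP2A and RPP2B recruit translation factors, and ASC1 encodes a signalling scaffold on the small subunit. With extra AZF1, 5 of the 6 were lower (median -0.76) beside 6.17% of all genes, and RPP2A just missed (-0.72 ± 0.19, adjusted p = 0.0547). RPP2B changed most (-0.98 ± 0.19, adjusted p = 0.0252), from 1105 and 1152 RPKM in WT, 1209 and 1184 RPKM in azf1Δ, 976 and 1479 RPKM in MoBY control and 613 and 605 RPKM in AZF1 MoBY. None of the 6 was called in MoBY control against WT (median -0.13) or in azf1Δ against WT (median 0.08), where 23.7% and 1.73% of all genes were. RPP1A, RPP2A and RPP2B had -0.07, 0.21 and 0.09 in MoBY control against WT. RPP0 just missed there (-0.65 ± 0.19, adjusted p = 0.0538). The direct test of gain against loss called 5 of the 6 lower, beside 6.80% of all genes.

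Known regulators of ribosomal protein genes moved in both directions. Of 15, 3 rose and none fell with extra AZF1, where 10.2% of all genes rose and 6.17% fell, so a count of 3 is not read as a result about the list. CRF1, the corepressor that takes the place of Ifh1 on Fhl1 when TOR is inhibited, was at 13.5 and 12.8 RPKM in WT, 9.06 and 7.01 RPKM in azf1Δ, 20.4 and 17.1 RPKM in MoBY control and 44.9 and 46.2 RPKM in AZF1 MoBY. It was lowest in azf1Δ and highest in AZF1 MoBY without overlap, and rose with extra AZF1 (1.24 ± 0.12, adjusted p = 0.00406), while its value in azf1Δ against WT did not pass (-0.66 ± 0.15, adjusted p = 0.0979). The direct test gave 1.90 ± 0.20, adjusted p = 0.00159. TOD6 (0.61 ± 0.11, adjusted p = 0.0217) and DOT6 (0.41 ± 0.10, adjusted p = 0.0448), repressors that act mainly on ribosome biogenesis genes, rose too. Unlike CRF1, both also had positive values in azf1Δ against WT (0.53 and 0.39), without passing. Their values in the direct test were 0.08 and 0.02, and neither passed. TOD6 was at 9.71 and 10.3 RPKM in WT, 13.6 and 16.2 RPKM in azf1Δ, 18.6 and 18.0 RPKM in MoBY control and 27.5 and 29.4 RPKM in AZF1 MoBY. In MoBY control against WT 2 of the 15 were higher and 1 lower, where 13.2% and 10.6% of all genes were. The higher were TOD6 and DOT6 (0.81 and 0.71), and the lower was RAP1, the activator at most of these promoters (-0.48 ± 0.13, adjusted p = 0.0373). IFH1 (0.02), FHL1 (-0.30) and SFP1 (0.17) did not pass with extra AZF1. SCH9, the growth kinase below TOR, passed the direct test only just (-0.46 ± 0.13, adjusted p = 0.04998). That test called 1 of the 15 lower and 1 higher, beside 6.80% and 7.90% of all genes. Counts of this size are not read as a result about the list. None of the 15 was called in azf1Δ against WT, where 1.73% of all genes were.

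Factors that carry or modify ribosomal proteins were read in the same way. Of 11 chaperones and importers, only YAR1, the chaperone of Rps3, passed with extra AZF1 (0.98 ± 0.20, adjusted p = 0.0272), where 16.4% of all genes did. YAR1 was at 25.8 and 24.3 RPKM in WT, 27.9 and 22.0 RPKM in azf1Δ, 79.9 and 122 RPKM in MoBY control and 186 and 206 RPKM in AZF1 MoBY, opposite in direction to its client RPS3, and it was higher in MoBY control than in WT (1.94 ± 0.20, adjusted p = 0.00138). In that comparison ACL4 (-0.71 ± 0.13, adjusted p = 0.0126), the chaperone of Rpl4, RRB1 (-0.60 ± 0.11, adjusted p = 0.0114), the chaperone of Rpl3, and LTV1 (-0.52 ± 0.14, adjusted p = 0.0451), an assembly factor of the small subunit, were lower, where 10.6% of all genes were. Of the 8 measured enzymes that modify ribosomal proteins, YPK3, a kinase of Rps6, fell with extra AZF1 (-0.68 ± 0.15, adjusted p = 0.0377), and the methyltransferase genes RKM5 (0.77 ± 0.17, adjusted p = 0.0333) and HPM1 (0.62 ± 0.13, adjusted p = 0.0302) rose, again beside 16.4% of all genes called. YPK3 was at 15.6 and 15.5 RPKM in WT, 18.4 and 21.0 RPKM in azf1Δ, 10.9 and 11.0 RPKM in MoBY control and 6.96 and 6.02 RPKM in AZF1 MoBY. None of the 8 was called in MoBY control or azf1Δ against WT, where 23.7% and 1.73% of all genes were. RPS6B, a gene of the target of Ypk3, was the least abundant member by its mean over the 8 libraries, with RPL15B lower in WT and azf1Δ, at 14.3 and 17.3 RPKM in WT, 16.6 and 18.4 RPKM in azf1Δ, 7.84 and 14.1 RPKM in MoBY control and 8.40 and 7.41 RPKM in AZF1 MoBY, with 46.0% unique windows and a partner that was not analysed here.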

How the data were processed

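Per the study's methods, the authors trimmed single-end reads from rRNA-depleted, strand-specific ScriptSeq libraries with Trimmomatic (0.3.0), mapped them to the Y22-3 genome with Bowtie2 (2.2.2, default settings) and counted them per gene with HTSeq (0.6.0). The deposited values are log2 of RPKM, rounded to steps of 0.01, and the authors' counts were not used here. RPKM was recovered as a power of 2. Genes reaching 1 RPKM in 2 or more libraries of a fit were tested on log2(RPKM + 1) with limma 3.58.1 (R 4.3.3, variance trend), 2 libraries against 2, with Benjamini-Hochberg adjustment over all genes and an adjusted p under 0.05 as the threshold. Fold changes on this scale understate the change of low genes, and errors are standard errors from the fit. For A/B ratios, limma was run over all reciprocal-best protein pairs (blastp 2.17.0, identity of 50% or more over 70% or more of the longer protein). Introns, unique 100-base windows and promoter letters came from RefSeq S288C R64, not the authors' Y22-3, so no coordinates or sequences are given. Depth was inferred from the spacing of low values, of which 88.1% to 91.2% lay within 0.15 of a whole read. Scripts were tested on simulated data. Named are, per comparison, the 3 lowest and 2 highest genes of each subunit, the pairs with the largest ratio changes and the most uneven and even ratios, genes picked for their role, members passing only the direct test, and called genes of 4 lists; some genes are counted but not reported by name here. Members and lists were chosen with earlier results of these data known.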

Additional observations from a re-analysis of the deposited data

How the results depend on the processing

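The medians of the members kept their sign with extra AZF1, in MoBY control against WT and in the direct test under every alternative run. Counts under alternative settings, here and above, are given without the share of all genes called under the same setting. A change in such a count is therefore not read as one about the members. Without a variance trend, 51 members were called lower with extra AZF1, 43 in the direct test and 2, 2 and 0 pairs with extra AZF1, in MoBY control and in azf1Δ. At an adjusted p under 0.01 the counts called lower were 32 with extra AZF1, 27 in MoBY control and 29 in the direct test. With all 8 libraries in one fit, 1 member, RPL4A, was called higher in MoBY control against WT. After median-ratio rescaling, which shifted all genes by -0.05, 0.04 and 0.01 in azf1Δ, extra AZF1 and MoBY control, the median member was at -0.051 in azf1Δ and -0.60 in the direct test. Over members with no A/B partner in the table the azf1Δ median was -0.035, and the large minus small subunit median in the direct test was -0.11. Over members with no letter in the name, a choice made after seeing the data, the azf1Δ median was 0.027, the median of the direct test -0.75 and its large minus small subunit median 0.10. With a pseudocount of 1, 4 pairs changed in azf1Δ and 7 with extra AZF1.

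Replicate letters mark different collection days, and the sources do not say that a letter pairs cultures. Deviations of same-lettered libraries correlated across 6105 genes at -0.11 (azf1Δ with WT), -0.02 (AZF1 MoBY with MoBY control) and 0.03 (MoBY control with WT). With the letter as a replicate block, 75 members were called lower with extra AZF1, 86 in MoBY control and 61 in the direct test, and 0, 1 and 6 pairs changed in azf1Δ, with extra AZF1 and in MoBY control. With the letters crossed in azf1Δ against WT, 0 members were called, as without a block.

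Leaving out one library at a time gave 0 to 62 members lower with extra AZF1 (medians -0.79 to -0.60), 3 to 25 in MoBY control (-0.67 to -0.47), 28 to 91 in the direct test (-0.77 to -0.60) and an azf1Δ median of -0.050 to 0.035. Changed pairs numbered 0 to 2 with extra AZF1, 1 to 4 in MoBY control and 0 in azf1Δ. The sign changed for RPL7B (-0.21 to 0.10), RPS29B (-0.57 to 0.23) and IFH1 (-0.060 to 0.10) with extra AZF1, and for RPS14A (-0.17 to 0.075), RPS14B (-0.060 to 0.020), RPP1A (-0.28 to 0.13), RPP2A (-0.070 to 0.50) and RPP2B (-0.21 to 0.39) in MoBY control against WT. A group left with 1 library was assumed to vary like the other. The causes of these differences were not tested, apart from the fewer samples of these fits. Low depth limits RPL15B and RPS6B most, and shared sequence the 18 members with under 90% unique windows.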
